A study of Mus musculus with 15 samples.

Results

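Thbs1, Ccn1, Ccn2, Plaur, Adm and Sfrp1 were followed in the whole thymus of mice given gp33, a peptide of lymphocytic choriomeningitis virus that CD8 T cells see on the class I molecule Db, or another Db-binding peptide as the control. They encode secreted or membrane-bound signalling proteins and were proposed as a set of matricellular genes and genes induced through SRF or YAP. They were found by their exact gene symbol among 19938 measured genes, and each was represented by 1 probe set. The groups were NOD.LCMV mice given gp33 (3 mice) or the control peptide (3 mice), and NOD.Ln82-LCMV mice given gp33 (5 mice) or the control peptide (4 mice). All were 5-week-old females that received 0.5 µg of peptide into a vein and were killed 2 h later, and every array held the RNA of a single mouse's thymus. The labels do not describe the elements that LCMV and Ln82 stand for in the strain names, nor any batch, so strain and a batch that followed it cannot be told apart.

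Matricellular proteins are secreted into the matrix around cells, where they act on receptors of the cell surface more than as scaffolding. Thrombospondin-1 (Thbs1) and the CCN proteins encoded by Ccn1 and Ccn2 bind integrins and other receptors, and their genes are textbook targets of the transcription factors SRF and YAP with TEAD in cells that spread, stretch or receive growth factors. Plaur encodes the urokinase receptor, which holds the protease urokinase at the cell surface. Adm encodes adrenomedullin, a vasodilator peptide, and Sfrp1 encodes a secreted protein that binds Wnt ligands.

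The label of an induced set described 4 of the 6 genes. In NOD.LCMV mice Thbs1, Ccn1, Adm and Plaur were 9.51, 9.27, 4.41 and 2.59 times as high with gp33 as with the control peptide, and every gp33 mouse lay above every control mouse. Of all genes measured, 10.9% showed such a separation upward, and 7.29% were called higher at an adjusted p under 0.05. Ccn2 and Sfrp1 did not separate the peptide groups of NOD.LCMV. In NOD.Ln82-LCMV none of the 6 genes was called different with gp33. The genes were chosen by measured values of these arrays, of which the label names only an induction by gp33. The values of the response in NOD.LCMV, those of the strain difference with gp33 and those of the difference between the responses are all counted as used in the choice and given as descriptions with no test.

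Promoter sequence from RefSeq (assembly GRCm38.p6) was at hand for 3 of the 6 genes, Ccn1, Plaur and Adm, all of which stood higher with gp33 in NOD.LCMV. Their 250 bases before the annotated start are shown 5′ to 3′ on the strand of the gene, to show which letters of known response elements they carry. Capitals mark the matches to the motifs searched. The Ccn1 stretch is chr3:145649986-145650235 (minus strand), that of Plaur is chr7:24462233-24462482 (plus strand) and that of Adm is chr7:110627407-110627656 (plus strand).
Ccn1: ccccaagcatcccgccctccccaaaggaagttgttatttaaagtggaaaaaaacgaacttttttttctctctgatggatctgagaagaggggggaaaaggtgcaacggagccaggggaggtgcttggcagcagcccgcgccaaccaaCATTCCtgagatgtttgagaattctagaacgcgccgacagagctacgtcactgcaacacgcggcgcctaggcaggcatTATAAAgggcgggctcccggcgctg
Plaur: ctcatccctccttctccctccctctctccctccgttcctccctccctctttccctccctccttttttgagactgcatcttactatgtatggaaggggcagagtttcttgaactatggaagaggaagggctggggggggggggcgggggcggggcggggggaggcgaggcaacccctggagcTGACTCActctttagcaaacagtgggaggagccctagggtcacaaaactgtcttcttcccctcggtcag
Adm: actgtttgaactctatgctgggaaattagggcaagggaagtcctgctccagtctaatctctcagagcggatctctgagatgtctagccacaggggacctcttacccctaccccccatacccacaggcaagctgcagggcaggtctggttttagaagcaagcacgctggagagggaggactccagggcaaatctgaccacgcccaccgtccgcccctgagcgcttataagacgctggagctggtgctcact
The Ccn1 stretch held the TEAD motif CATTCC, beginning 103 bases before the start, and the TATA motif TATAAA, beginning 25 bases before it. The Plaur stretch held 1 match to the AP-1 motif TGANTCA, beginning 69 bases before the start. No letters of the Adm stretch matched. Motifs were searched on both strands in windows of the same length before 32851 annotated starts, of which 12.6% held the TEAD motif, 12.4% the TATA motif and 6.75% the AP-1 motif. The other motifs searched were the CArG box of SRF (1.47% of windows), the cyclic AMP response element TGACGTCA (1.55%), the hypoxia core ACGTG (16.6%) and the NF-κB consensus (3.9%). A match is a description of the letters and shows no binding, and the arrays hold no binding data.

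Values below are log2 array signals, in which a difference of 1 is a doubling, and they cannot be set against each other between genes. All group means of the 6 genes lay above 6.92, the level under which the dimmest 33.3% of the genes lay. Array medians lay between 7.59 and 7.67, and arrays of a group correlated at 0.990 or more across probe sets. In whole tissue, fewer cells of a type and less RNA per cell cannot be told apart.

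Thbs1, on chromosome 2, measured 11.37, 11.78 and 11.48 in the NOD.LCMV mice given gp33, against 8.22, 8.30 and 8.36 in those given the control peptide. In NOD.Ln82-LCMV it measured 8.37, 8.08, 8.21, 8.06 and 8.0 with gp33, against 8.11, 8.25, 8.11 and 8.08 with the control peptide. The 3 NOD.LCMV mice given gp33 thus stood apart from the other 12 mice, whose values lay close together, and the 2 NOD.Ln82-LCMV groups overlapped. The gp33 difference in NOD.LCMV was 3.25 ± 0.10 (standard error), rank 12 from the highest among all genes, and the strain difference with gp33 was 3.40 ± 0.09, rank 2.

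Ccn1, on chromosome 3, encodes a protein that binds integrins and heparan sulphate and is an immediate early gene in cultured fibroblasts. It measured 11.44, 11.65 and 11.66 in NOD.LCMV with gp33, against 8.28, 8.47 and 8.36 with the control peptide. In NOD.Ln82-LCMV it measured 8.40, 8.17, 7.90, 8.03 and 8.31 with gp33, against 7.73, 7.94, 8.10 and 8.21 with the control peptide. As for Thbs1, the NOD.LCMV mice given gp33 stood alone. The gp33 difference in NOD.LCMV was 3.21 ± 0.13 (rank 15), and the strain difference with gp33, 3.42 ± 0.11, ranked first among all genes.

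Ccn2, on chromosome 10, encodes a CCN protein associated with matrix deposition. It measured 8.58, 8.76 and 8.63 in NOD.LCMV with gp33, against 8.56, 8.76 and 8.27 with the control peptide. In NOD.Ln82-LCMV it measured 8.11, 8.23, 8.23, 8.23 and 8.40 with gp33, against 8.28, 8.63, 8.36 and 8.35 with the control peptide. The peptide groups overlapped in both strains, and with gp33 the NOD.LCMV mice lay above all NOD.Ln82-LCMV mice, by 0.42 ± 0.10, a separation upward that 10.6% of all genes showed. The gp33 difference in NOD.LCMV was 0.13 ± 0.11, with a 95% interval from -0.11 to 0.36, and the difference between the responses was 0.29 ± 0.14, with an interval from -0.02 to 0.60.

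**Figure D1:**
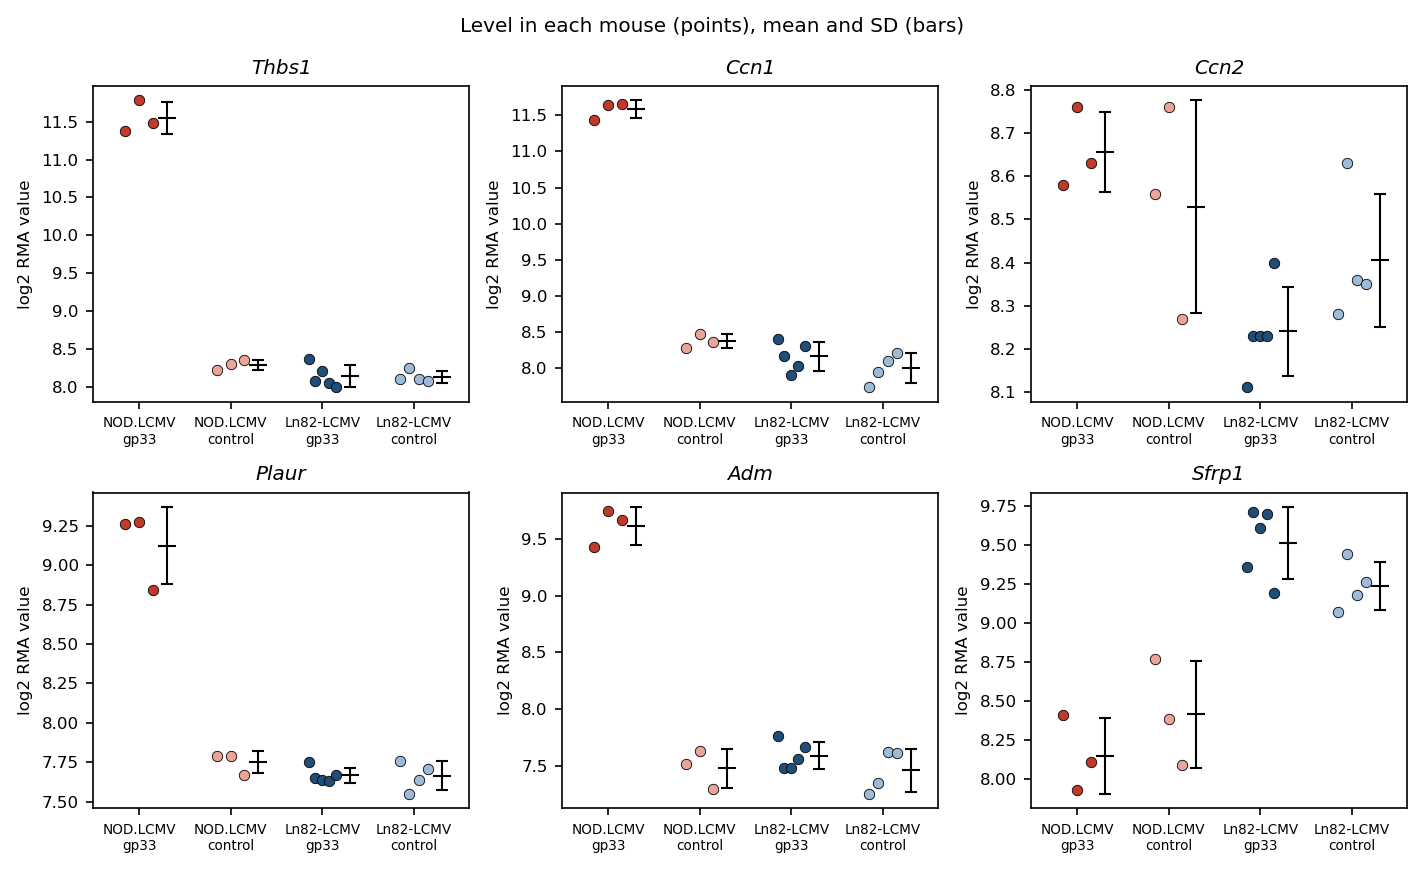
Log2 signal of each mouse (points) with group means and SD (bars) for the 6 genes, in NOD.LCMV with gp33 and with the control peptide and in NOD.Ln82-LCMV (written Ln82-LCMV) with gp33 and with the control peptide. Thbs1, Ccn1, Plaur and Adm stand apart in NOD.LCMV with gp33, Ccn2 overlaps between peptides, and Sfrp1 separates the strains.

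Plaur, on chromosome 7, measured 9.26, 9.27 and 8.84 in NOD.LCMV with gp33, against 7.79, 7.79 and 7.67 with the control peptide. In NOD.Ln82-LCMV it measured 7.75, 7.65, 7.64, 7.63 and 7.67 with gp33, against 7.76, 7.55, 7.64 and 7.71 with the control peptide. The gp33 mice of NOD.LCMV were above all other mice, and the lowest of the 3 was mouse 3. The gp33 difference in NOD.LCMV was 1.37 ± 0.09 (rank 112), and the strain difference with gp33 was 1.46 ± 0.08.

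Adm, on the same chromosome, measured 9.43, 9.75 and 9.67 in NOD.LCMV with gp33, against 7.51, 7.63 and 7.29 with the control peptide. In NOD.Ln82-LCMV it measured 7.76, 7.48, 7.48, 7.56 and 7.66 with gp33, against 7.25, 7.35, 7.62 and 7.61 with the control peptide. Again only the gp33 mice of NOD.LCMV were set apart, and the other 3 groups overlapped. The gp33 difference in NOD.LCMV was 2.14 ± 0.12 (rank 33), and the strain difference with gp33 was 2.03 ± 0.10.

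Sfrp1, on chromosome 8, separated the strains with either peptide. It measured 8.41, 7.93 and 8.11 in NOD.LCMV with gp33, against 8.77, 8.39 and 8.09 with the control peptide. In NOD.Ln82-LCMV it measured 9.36, 9.71, 9.61, 9.70 and 9.19 with gp33, against 9.44, 9.18, 9.26 and 9.07 with the control peptide. Every NOD.LCMV mouse lay below every NOD.Ln82-LCMV mouse, while the peptide groups of each strain overlapped. From high to low, the group means ± SD were 9.51 ± 0.23 in NOD.Ln82-LCMV with gp33, 9.24 ± 0.16 in NOD.Ln82-LCMV with the control peptide, 8.42 ± 0.34 in NOD.LCMV with the control peptide and 8.15 ± 0.24 in NOD.LCMV with gp33. The neighbours within a strain overlapped, and the gp33 difference in NOD.LCMV was -0.27 ± 0.17, with an interval from -0.63 to 0.10. With gp33 the strain difference was -1.36 ± 0.15, NOD.LCMV being 2.57-fold lower, and 16.3% of all genes were separated downward in this way. The difference between the responses was -0.54 ± 0.22, with an interval from -1.02 to -0.07.

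The response to gp33 in NOD.Ln82-LCMV is another contrast, but its 9 mice also enter contrasts counted as used in the choice, so its p-values are not independent of it. It was tested with limma's moderated test in a single model of all 15 arrays, with Benjamini-Hochberg adjustment over all genes, and for single genes with the exact two-sided permutation test. None of the 6 genes was called (limma, 0 at an unadjusted p under 0.05), where 0.00502% of all genes were called, which is 1 gene, and the peptide groups overlapped for each of the 6, where 0.667% of all genes were separated upward and 0.848% downward. For Thbs1 the difference was 0.01, with a 95% interval from -0.17 to 0.18 (adjusted p = 0.998, exact permutation p = 0.952). For Ccn1 it was 0.17, with an interval from -0.06 to 0.39 (adjusted p = 0.922, exact permutation p = 0.262). The difference between the responses of the 2 strains was 3.24 ± 0.13 for Thbs1 and 3.05 ± 0.17 for Ccn1.

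For Adm the NOD.Ln82-LCMV difference was 0.13, with an interval from -0.07 to 0.33 (adjusted p = 0.953, exact permutation p = 0.262), and for Plaur it was 0.00, with an interval from -0.16 to 0.16 (adjusted p = 0.998, exact permutation p = 0.952). The difference between the responses was 2.01 ± 0.15 for Adm and 1.37 ± 0.12 for Plaur. For Ccn2 the NOD.Ln82-LCMV difference was -0.17, with an interval from -0.36 to 0.03 (adjusted p = 0.887, exact permutation p = 0.0873). For Sfrp1 it was 0.28, with an interval from -0.02 to 0.58 (adjusted p = 0.859, exact permutation p = 0.0952). Ccn2 and Sfrp1 thus had the smallest p-values of the 6, in opposite directions and short of the threshold.

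The strain difference with the control peptide, NOD.LCMV minus NOD.Ln82-LCMV, shares its arrays with contrasts counted as used in the choice, so it too is not independent of the choice. Of the 6 genes 1 was called, Sfrp1, where 10.3% of all genes were called (4.77% higher and 5.54% lower). Sfrp1 was 1.77-fold lower in NOD.LCMV, with an interval from 1.39-fold to 2.24-fold (log2 difference -0.82 ± 0.16, limma adjusted p = 0.00455), and lower in all 3 NOD.LCMV mice than in all 4 NOD.Ln82-LCMV mice. The exact permutation p was 0.0286, the smallest that 3 mice against 4 allow.

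Ccn1 came next. It was higher in all 3 NOD.LCMV control mice than in all 4 NOD.Ln82-LCMV control mice, 1.30-fold on average (log2 difference 0.38 ± 0.12), which missed the threshold after adjustment (limma adjusted p = 0.0612, exact permutation p = 0.0571). It was called under 5 of 25 alternatives of the processing, among them array weights, with limma adjusted p-values from 0.0188 to 0.208. Of all genes, 10.3% were separated upward in this way and 9.36% downward. The differences of Thbs1 (0.16 ± 0.09), Ccn2 (0.13 ± 0.10), Plaur (0.09 ± 0.09) and Adm (0.02 ± 0.11) were not called, with limma adjusted p-values from 0.381 to 0.956.

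**Figure D2:**
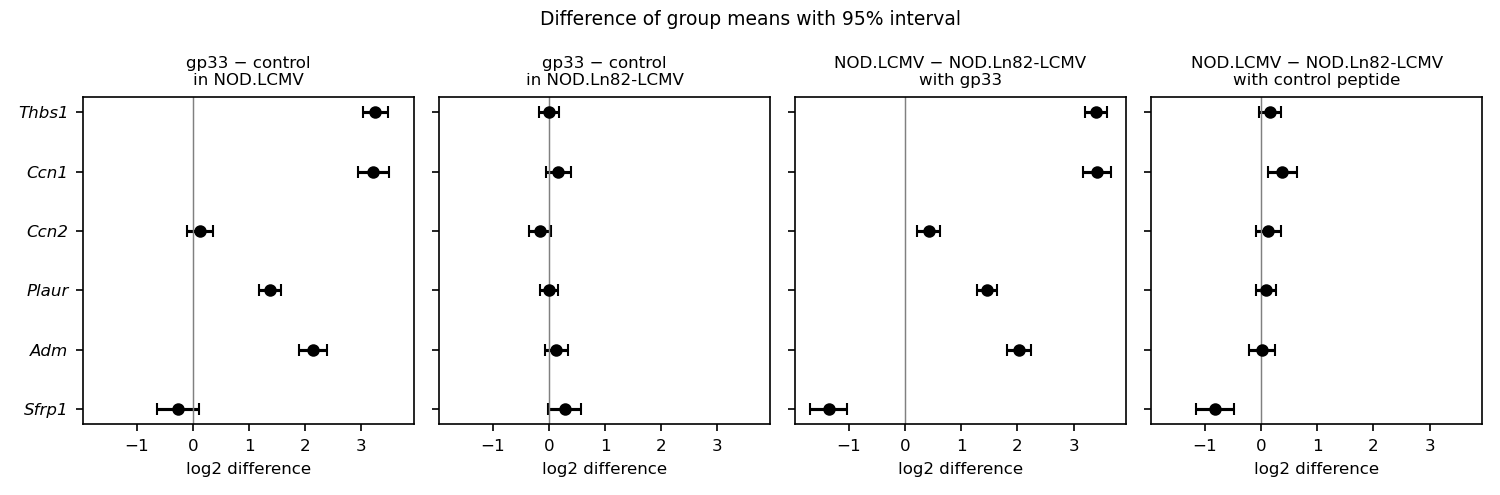
Log2 difference of group means with its 95% interval (points and bars) for the 6 genes, from left to right gp33 minus control in NOD.LCMV and in NOD.Ln82-LCMV, and NOD.LCMV minus NOD.Ln82-LCMV with gp33 and with the control peptide. Thbs1, Ccn1, Adm and Plaur lie right of 0 in the NOD.LCMV response and in the strain difference with gp33. So do the intervals of Ccn2 in the strain difference with gp33 and of Ccn1 in that with the control peptide. All 6 intervals hold 0 in the NOD.Ln82-LCMV response, and Sfrp1 lies left of 0 in both strain panels.

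The surroundings of the 6 genes were read from 13 lists of related genes, of which 180 genes were measured. In the NOD.LCMV response 23 of the 180 rose and 15 fell at a limma adjusted p under 0.05, 21.1% in all, against 19.8% of all genes (7.29% higher and 12.5% lower). The share of changed genes in the lists as a whole was thus near that of all genes. Single lists differed in how many of their genes changed, and the median log2 difference of each is given beside its count and set against a median of -0.03 over all genes. In the NOD.Ln82-LCMV response none of the 180 genes was called by limma (10 had an unadjusted p under 0.05). Over all 19938 genes, 0.00502% were called in this response, which is 1 gene, and 1190 had an unadjusted p under 0.05 (limma).

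**Figure D3:**
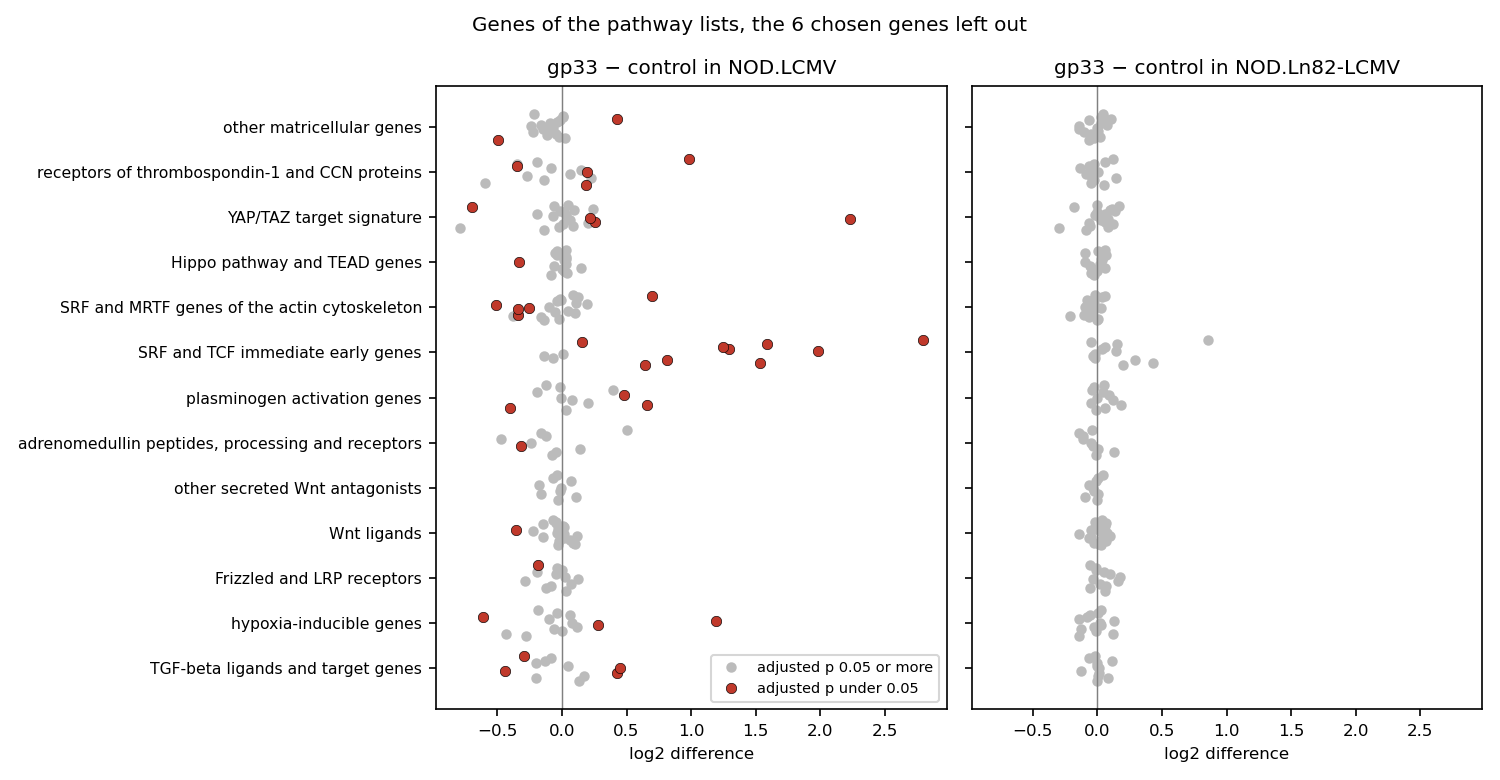
Log2 difference of gp33 minus control for each gene of the 13 lists (points), one row a list, in NOD.LCMV (left) and NOD.Ln82-LCMV (right), with called genes in red. In NOD.LCMV the SRF and TCF immediate early list, which also holds TCF cofactors of SRF, lies to the right, with 9 of 12 genes higher. The other lists lie mostly around 0, and no point is red in NOD.Ln82-LCMV, where 1 of all 19938 genes was called.

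Among 18 other matricellular genes, 1 rose and 1 fell (median -0.08). Tnc, encoding tenascin-C, rose by 0.43 ± 0.08, and Ccn3, the CCN protein best known for slowing growth, fell by 0.50 ± 0.13 (limma adjusted p = 0.011), a call that was lost without NOD.LCMV control mouse 1 or 2. Receptors of thrombospondin-1 and CCN proteins had 3 of 13 genes higher and 1 lower (median -0.08). Sdc4, a heparan sulphate proteoglycan of focal adhesions, rose by 0.98 ± 0.11 (limma adjusted p = 8.47e-06), and Itgav, the integrin chain that pairs with several others, rose by 0.19 ± 0.04, as did Calr, encoding calreticulin, by 0.18 ± 0.05. The Calr call was lost without NOD.LCMV gp33 mouse 1 or control mouse 2. Itgb3, the beta chain of the vitronectin receptor, fell by 0.35 ± 0.08.

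The YAP and TAZ target signature, to which Ccn1 and Ccn2 belong in the literature, had 3 of its other 20 genes higher and 1 lower (median 0.02). F3, which encodes tissue factor, the trigger of blood clotting, measured 8.98 to 9.64 in NOD.LCMV with gp33, against 7.10 to 7.14 with the control peptide, and in NOD.Ln82-LCMV 7.12 to 7.25 with gp33, against 6.90 to 7.30 with the control peptide. It was 4.69-fold higher with gp33 in NOD.LCMV (log2 difference 2.23 ± 0.13, limma adjusted p = 1.12e-08), and its response differed between the strains by 2.15 ± 0.17 (limma adjusted p = 9.61e-07). The other changes were small for Crim1 (0.25 ± 0.07) and Fjx1 (0.21 ± 0.06), and Ptpn14, a phosphatase that holds YAP back, fell by 0.70 ± 0.08 (limma adjusted p = 1.66e-05). The Crim1 call was lost without NOD.LCMV gp33 mouse 2 or 3 or control mouse 3, and the Fjx1 call without gp33 mouse 1 or 2 or control mouse 1 or 2. Among 15 genes of the Hippo pathway and TEAD factors only Stk4, the kinase at its head, was called, and it fell by 0.34 ± 0.05 (median of the list 0.02).

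The genes on which SRF acts fell into a list with its MRTF cofactors and one with its TCF cofactors. Of 20 genes of the MRTF list, which holds Srf, its MRTF cofactors and genes of the actin cytoskeleton, 1 rose and 4 fell (median -0.03). Vcl, encoding vinculin, rose by 0.69 ± 0.06 (limma adjusted p = 1.2e-06), whereas Mrtfa (-0.34 ± 0.06), Cnn2 (-0.34 ± 0.07), Mrtfb (-0.26 ± 0.05) and Myl9 (-0.51 ± 0.17) fell. Myl9, named beyond the rule to complete the count, was called under 12 of 25 alternatives. The list of immediate early genes and TCF cofactors held 12 genes, of which 9 rose and none fell (median 1.03). The 3 not called were the TCF cofactors Elk1, Elk3 and Elk4, named beyond the rule. Among the 9 immediate early genes, all of which rose, Nr4a1, a nuclear receptor gene switched on by T-cell receptor signals, rose by 2.80 ± 0.20. Fos rose by 1.99 ± 0.21, Junb by 1.59 ± 0.09 (limma adjusted p = 6.85e-09) and Egr2 by 1.53 ± 0.12. Mcl1, named beyond the rule, rose least, with differences of 0.14 to 0.19 over the alternatives. It was called under 19 of 25 of them, and its call was lost without NOD.LCMV gp33 mouse 1 or 3 or control mouse 1 or 2. In NOD.Ln82-LCMV, Nr4a1 was 11.57 to 12.07 with gp33, against 10.29 to 11.25 with the control peptide, without overlap, and its difference of 0.86 was not called (limma adjusted p = 0.219).

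Around Plaur, 2 of 11 genes of plasminogen activation rose and 1 fell (median 0.03). Mmp9, a gelatinase, rose by 0.66 ± 0.09, Plgrkt, a plasminogen receptor, by 0.48 ± 0.07, and Mmp2 fell by 0.40 ± 0.10. Plau, the ligand of the Plaur receptor and named here after its value was seen, differed by 0.08 and was not called. Around Adm, none of 9 genes of the adrenomedullin peptides and receptors rose and 1 fell (median -0.13). Calcrl, the receptor of adrenomedullin, fell by 0.32 ± 0.09 (limma adjusted p = 0.0173), a call lost without NOD.LCMV gp33 mouse 1 or 2 or control mouse 1 or 3. Its partner Ramp3 was 0.50 higher and not called (limma adjusted p = 0.062).

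Around Sfrp1, none of 9 other secreted Wnt antagonists was called by limma (2 had an unadjusted p under 0.05, median -0.03). Of 19 Wnt ligands Wnt5b alone was called, and of 12 Frizzled and LRP receptors Lrp6 alone. Wnt5b fell by 0.35 ± 0.09, a call lost without NOD.LCMV gp33 mouse 1 or control mouse 2 or 3, and Lrp6 fell by 0.19 ± 0.05, a call lost without gp33 mouse 1 or control mouse 1 or 3 and when arrays were centred on their medians.

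Hypoxia-inducible genes, to which Adm is often counted, had 2 of 13 higher and 1 lower (median -0.04). Ndrg1 rose by 1.19 ± 0.07 (limma adjusted p = 2.13e-08) and Hif1a by 0.28 ± 0.05, and Pdk1, whose kinase shuts down pyruvate dehydrogenase, fell by 0.61 ± 0.08. Of 11 TGF-beta genes 2 rose, Skil by 0.42 ± 0.06 and Tgfb1 by 0.45 ± 0.08, and 2 fell, Smad7 by 0.44 ± 0.10 and Tgfbr2 by 0.29 ± 0.07. The response differed between the strains for 24 of the 180 genes (18 higher and 6 lower in NOD.LCMV), which is 13.3%, against 8.73% of all genes (4.46% higher and 4.26% lower). Of these 24 genes, 8 came from the 12 genes of the SRF and TCF immediate early list. Sdc4 differed by 0.86 ± 0.14, Vcl by 0.64, Junb by 1.43 and Ndrg1 by 1.07, with limma adjusted p-values from 1.09e-06 to 0.000828.

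With the control peptide, 15 of the 180 genes were higher and 1 was lower in NOD.LCMV than in NOD.Ln82-LCMV. That is 8.89% in all, against 10.3% of all genes (4.77% higher and 5.54% lower). The direction of calls over all genes moved with centring, as 46.3% of them were higher, against 15.3% with arrays centred on their medians. Mrtfb, the SRF cofactor, was higher by 0.41 ± 0.05 (limma adjusted p = 0.000237), Egr2 by 0.40 and Lrp1, an endocytic receptor of thrombospondin-1, by 0.28. Stk4 and Lats1, kinases of the Hippo pathway, were higher by 0.20 and 0.23. Anxa2, which binds plasminogen and its activator at the cell surface, was lower by 0.39 ± 0.08 on the log2 scale (limma adjusted p = 0.00691).

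The genes whose values followed each of the 6 most closely were sought over the 15 arrays. These correlations describe arrays that share the groups, so they carry no p. Thbs1 was followed by Jak2 (Pearson r = 0.994), Tnfaip6 (0.993) and Il6 (0.992), and Ccn1 by Il1f9 (0.992), Tnfsf9 (0.991) and Trmt61a (0.991). Plaur was followed by Socs3 (0.995), Orai1 (0.987) and Cblb (0.987), and Adm by Atf3 (0.992), Ccrl2 (0.991) and Cish (0.991). Having been picked for likeness to genes that were high with gp33 in NOD.LCMV, all 12 were higher there too, by 0.48 ± 0.05 for Cblb up to 3.57 ± 0.09 for Atf3, which is a description and no test.

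Ccn2 and Sfrp1 had other company. Ccn2 was followed less closely, by Foxc2 (r = 0.843), Hemk1 (0.836) and Slfnl1 (0.83). Sfrp1 was followed by Ly96 (0.979), Cd79b (0.970) and Ly6d (0.969), genes picked for a pattern that separates the strains, so their own strain differences are given with no test. With the control peptide Ly96, a partner of the endotoxin receptor, differed by -1.34 ± 0.18, Cd79b, a chain of the B-cell receptor, by -0.72 ± 0.19 and Ly6d, a surface protein of lymphoid precursors and B cells, by -1.37 ± 0.26 (NOD.LCMV minus NOD.Ln82-LCMV).

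When each value was expressed as its deviation from the group mean, so that strain and peptide no longer entered, Ccn1 and Adm varied together from mouse to mouse (r = 0.80, Spearman rho 0.858, and r = 0.760 without the 2 arrays farthest from the median of Ccn1). This was the highest of the 15 pairs of the 6 genes. The closest follower of Ccn2 in its deviations was Cnn1, encoding the smooth muscle protein calponin (r = 0.933), and the next was Ccn3 (0.904). The closest followers of the others were Ppip5k2 for Thbs1 (0.848), F12 for Ccn1 (0.936), Bsdc1 for Plaur (0.894), Kcnj10 for Adm (0.878) and Pstpip2 for Sfrp1 (0.934). These are the highest of 18249 genes compared, over 15 arrays that share the dissection and the hybridization of each mouse, and are given without a p.

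**Figure D4:**
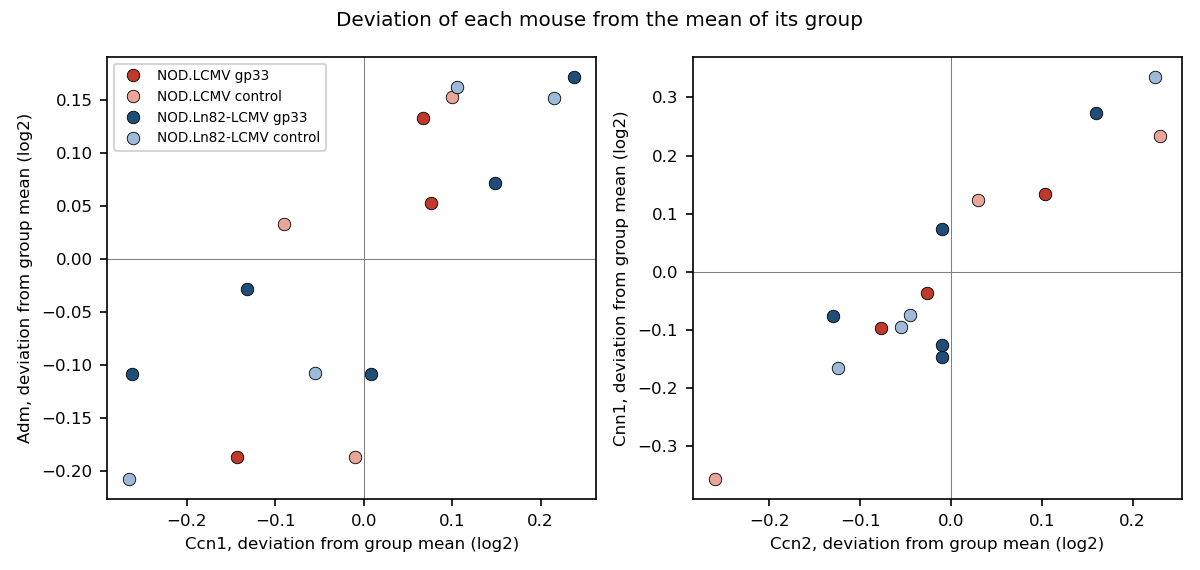
Deviation of each mouse from its group mean (log2), for Adm against Ccn1 (left) and for Cnn1 against Ccn2 (right), coloured by group. In both panels mice of all 4 groups spread along the diagonal, with r = 0.80 and r = 0.933.

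Markers of other cells of the thymus moved unevenly, where 7.29% of all genes were called higher and 12.5% lower in the NOD.LCMV response. In the NOD.LCMV response, where Thbs1, Ccn1, Plaur and Adm stood higher, 5 of 6 neutrophil markers rose, Mmp8 by 1.43 ± 0.09 and Csf3r by 1.01 ± 0.07, and their summed level was 10.11 to 10.62 with gp33, against 9.41 to 9.53 with the control peptide. It was 9.31 to 9.58 in NOD.Ln82-LCMV with gp33, against 9.17 to 9.40 with the control peptide. None of 5 platelet markers, whose cells store thrombospondin-1, was called by limma (0 at an unadjusted p under 0.05), and their summed level was 9.76 to 9.86 with gp33, against 9.79 to 9.92 with the control peptide. Of 8 endothelial markers 2 fell, Pecam1 (-0.61) and Eng (-0.91). Of 8 fibroblast markers 1 fell, Pdgfrb (-0.49), a share of 12.5%, the same as over all genes. None of 5 smooth muscle markers was called by limma (0 at an unadjusted p under 0.05).

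Of the markers of the organ itself, 3 of 6 thymocyte genes fell, among them Cd8a (-0.51) and Dntt (-0.36), where 12.5% of all genes were called lower. In the thymic epithelial list 2 of 9 genes fell, Psmb11 (-0.53) and Foxn1 (-0.33), and none was called higher. The differences of these 9 genes ran from -0.53 to 0.33 (median -0.09), so they did not all move downward. Of 7 macrophage and dendritic cell markers 2 fell, Xcr1 (-0.67) and Clec9a (-0.72), and of 4 mesothelial markers Lrrn4 fell by 0.34. None of 3 adipocyte markers was called by limma (0 at an unadjusted p under 0.05). The part of any of these cells in the gp33 differences of the 6 genes was not tested.

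Beside the strain difference of Sfrp1 stood that of B-cell genes, a list added after Cd79b and Ly6d had been seen among its closest followers. The summed level of 9 measured B-cell markers was 11.00 to 11.43 in NOD.LCMV with gp33, against 11.94 to 12.36 in NOD.Ln82-LCMV with gp33. With the control peptide it was 11.14 to 11.75 in NOD.LCMV, against 11.46, 12.12, 11.94 and 12.09 in NOD.Ln82-LCMV. The strains were thus apart with gp33 and overlapped with the control peptide, through NOD.Ln82-LCMV control mouse 1 (11.46). With the control peptide Cd79b, which had led to the list, was the 1 marker of 9 that was called. The differences of the 9 markers there ran from -0.98 to -0.03 (median -0.27). With the control peptide none of 8 fibroblast markers was called by limma (1 had an unadjusted p under 0.05), and their summed level was 12.36 to 12.69 in NOD.LCMV, against 12.35 to 12.69 in NOD.Ln82-LCMV. Of 9 thymic epithelial markers Krt14 alone was called (-0.36 ± 0.11, limma adjusted p = 0.0462), and their summed level was 14.38 to 14.41 in NOD.LCMV, against 14.24 to 14.46 in NOD.Ln82-LCMV. Of 8 endothelial markers 2 were called higher in NOD.LCMV and none lower, and of 5 platelet markers 1 was called lower. No marker of the remaining lists was called with the control peptide, where 4.77% of all genes were called higher and 5.54% lower. With gp33, 6 of 9 B-cell, 5 of 9 thymic epithelial, 5 of 8 endothelial and 3 of 8 fibroblast markers were called lower in NOD.LCMV and none higher. So were 5 of 7 macrophage and dendritic cell, 4 of 6 thymocyte and 2 of 5 platelet markers, where 16.8% of all genes were called lower. The 6 neutrophil markers had a median difference of 0.91, against a median of -0.02 over all genes. No smooth muscle, mesothelial or adipocyte marker was called. Lower calls were thus also found outside B cells and stroma, with median differences that varied between lists. The median was -0.65 for B cells, -0.40 for thymocytes and -0.39 for macrophages and dendritic cells. It was -0.25 for endothelium and for thymic epithelium, -0.14 for fibroblasts and -0.07 for platelets. The part of B cells or stroma in the difference of Sfrp1 was not tested.

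**Figure D5:**
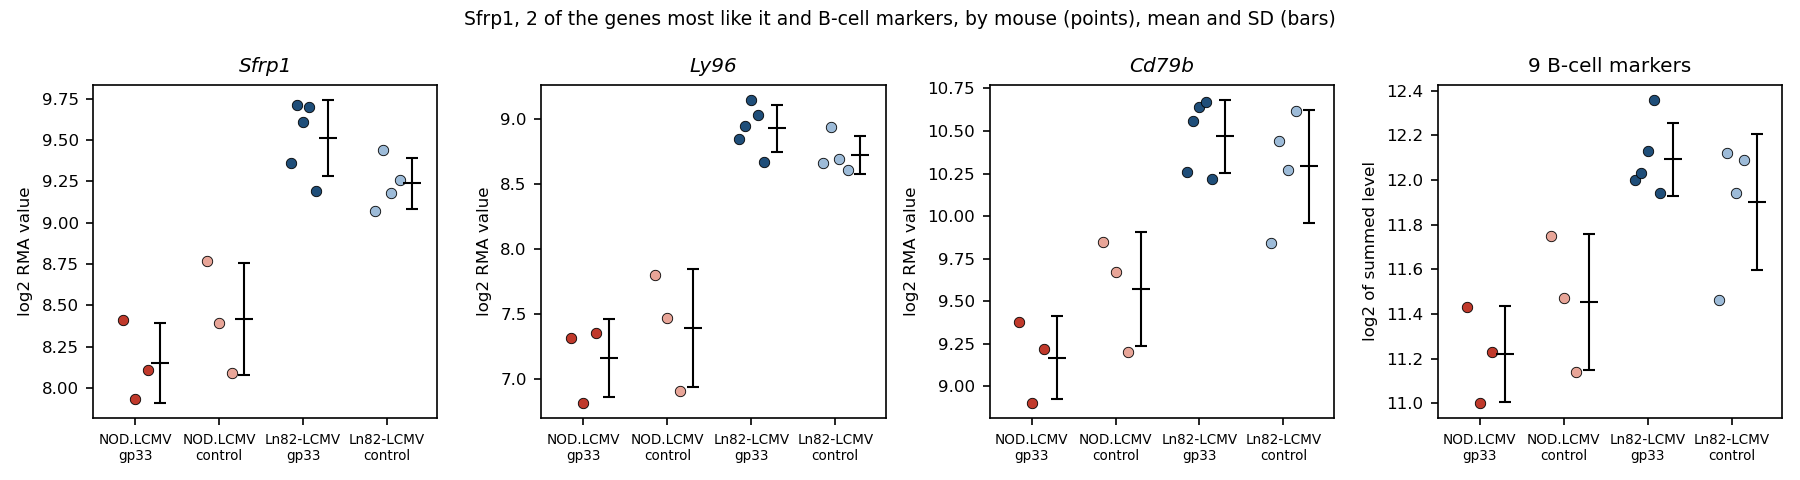
Log2 signal of each mouse (points) with group means and SD (bars) for Sfrp1, Ly96, Cd79b and the summed level of 9 B-cell markers, in NOD.LCMV with gp33 and with the control peptide and in NOD.Ln82-LCMV (written Ln82-LCMV) with gp33 and with the control peptide. Sfrp1 is lower in every NOD.LCMV mouse than in every NOD.Ln82-LCMV mouse. The B-cell sum overlaps between strains with the control peptide, through NOD.Ln82-LCMV control mouse 1.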

How the data were processed

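Total RNA of whole thymus from 15 mice was measured on Affymetrix Mouse Gene 1.0 ST arrays, 1 per mouse. The deposited values are log2 signals from RMA, run by the authors in Affymetrix Expression Console 1.1, per the submitters' processing notes. The number of arrays limits the precision. Of 35556 probe sets, 23410 carried an annotation and 21789 exactly 1 symbol. A gene was represented by its probe set with the highest mean, which left 19938 genes. No further normalization was applied. One model with a mean per group was fitted to all arrays in limma 3.58.1 (R 4.3.3), with empirical Bayes variances, two-sided tests and Benjamini-Hochberg adjustment over all genes, and a gene was called at an adjusted p under 0.05. It was tested on simulated data. Single genes were also compared by exact permutation tests.

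The genes, lists and tests were chosen with earlier results of these data known, and nothing here is independent support for what those results showed. Named genes were the 6 genes, from each list the up to 4 genes of smallest adjusted p in the NOD.LCMV response, called or not, and up to 4 called in the NOD.Ln82-LCMV response or the control strain difference, the 3 genes most like each of the 6, and up to 2 markers a list. Exceptions are marked in the text. Summed marker levels are log2 of the sum of unlogged signals. Alternatives were array weights, a trend of the variance, a 1.5-fold limit, fits of the compared groups alone, another quantile normalization, centring on medians, fewer dim genes, other uses of probe sets, a replicate block and leaving out each array.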

Additional observations from a re-analysis of the deposited data

Results flagged for a closer look

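Of the 180 genes in the lists around Thbs1, Ccn1, Ccn2, Plaur, Adm and Sfrp1, 24 responded to gp33 differently in NOD.LCMV and NOD.Ln82-LCMV. The call was by the test of the difference itself (limma, adjusted over all genes). The share was 13.3%, against 8.73% of all genes. F3, Sdc4, Vcl, Junb and Ndrg1 were among the 24, as were 8 of the 12 genes of the SRF and TCF immediate early list. The 6 genes themselves were left out of the count of 24, since that difference is counted as used in their choice.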

How the results depend on the processing

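Against 3943 genes called in the NOD.LCMV response, 591 were called with a limit of 1.5-fold, and leaving out single arrays gave 3000 to 4271. In the NOD.Ln82-LCMV response, where 1 gene was called, 4 were called with array weights, 4 with a variance trend and 0 with the 1.5-fold limit, with only the groups compared or with the replicate block, and 0 to 2 without single arrays. For the strain difference with the control peptide, 2057 genes became 4350 with array weights and 110 with the 1.5-fold limit, and 1049 to 2721 without single arrays, the lowest without NOD.LCMV control replicate 3, then 1188 without NOD.Ln82-LCMV control replicate 3 and 1310 without NOD.LCMV control replicate 2. The 1 of 6 genes called there became 2 with array weights and without the dimmest genes, and 1 to 2 without single arrays, Ccn1 being the gene added. Sfrp1 was called under all 25 alternatives (adjusted p 0.000428 to 0.0354), and Ccn1 under 5 of 25 (adjusted p 0.0188 to 0.208). List genes called in the NOD.LCMV response, 38, became 58 with array weights and 15 with the 1.5-fold limit, and 33 to 45 without single arrays. With the replicate block, though deviations of the 4 same-numbered pairs correlated only between -0.226 and 0.117 and the labels name no pairing, 40 list genes were called, and the other counts moved by less than 1.5 times, except that 0 genes were called in NOD.Ln82-LCMV. With median centring, 47.2% of calls were higher in the NOD.LCMV response, against 36.9% without it, and 15.3% in the strain difference, against 46.3% without it. Plaur's difference between responses was 1.51 without NOD.LCMV gp33 replicate 3. The cause of these shifts was not tested.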
